A study of Homo sapiens with 18 samples.

Results

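Transcripts of 10 genes of the interleukin-6 cytokine family were followed in MDA-MB-231 cells: the ligands IL11, IL6 and LIF, the receptor chains IL11RA, IL6R, LIFR and OSMR, the shared receptor chain IL6ST, the transcription factor STAT3 and the feedback inhibitor SOCS3. They were named gene by gene from the 62703 genes in the files, and were chosen because IL11 was much lower in both knockdowns than in control shRNA. For that reason the values of these genes against control shRNA are given as a description, with no test. All 10 had a unique symbol and enough reads to be tested in both experiments.

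Ligands of this family are secreted proteins that act on the same or on neighbouring cells. IL-11 binds the chain encoded by IL11RA and IL-6 the chain encoded by IL6R, and each complex then recruits gp130, the signalling chain encoded by IL6ST. LIF signals through gp130 paired with LIFR, and oncostatin M through gp130 paired with LIFR or OSMR. Janus kinases bound to these chains phosphorylate STAT3, which enters the nucleus and activates target genes, SOCS3 among them, and the SOCS3 protein binds gp130 and dampens the signal. IL-11 and IL-6 made by breast cancer cells are known for their part in osteolytic bone metastasis, and MDA-MB-231 is the line in which much of that work was done.

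MDA-MB-231 is an established human triple-negative breast cancer line. Polyadenylated RNA was sequenced in 10 distinct libraries that fall into 5 groups of 2. For the knockdowns, cells received a lentivirus with control shRNA, shEZH2 or shE2F1 for 24 h and were then kept in 2 µg/ml puromycin for 72 h, so that all 3 of these groups carry a virus and went through selection. The labels of the other groups name no virus. Their cells were kept for 72 h in DMSO or in 1 µM GSK126, which blocks the methyltransferase activity of EZH2. EZH2 is the enzyme that places methyl groups on histone H3 within the Polycomb repressive complex PRC2, and E2F1 is a transcription factor that drives genes of the cell cycle. The labels name a hairpin only by its target and do not say whether the 2 libraries of a group came from separate cultures, so the spread between libraries, and every p-value built on it, may be technical.

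Library totals ranged from 13198932 to 20055550 expected counts. EZH2 had 52.7 and 44.8 counts per 1000000 reads (CPM) in the shEZH2 libraries against 153 and 181 in control shRNA, and E2F1 had 26.0 and 22.5 CPM in the shE2F1 libraries against 143 and 138. E2F1 was also low in the shEZH2 libraries, at 62.5 and 32.3 CPM. The line's markers VIM and CD44 were abundant, PGR was at 0 in every library and ESR1 reached at most 0.216 CPM, whereas ERBB2 ranged from 46.1 to 90.3 CPM. VIM stood at 1420 and 1281 CPM with shEZH2 against 3217 and 3522 with control shRNA, and its part in the results below was not tested. The 4 leukocyte markers summed to at most 2.29 CPM in any library, with CD3E at 0 in all 10, and the 2 endothelial markers summed to at most 1.35 CPM.

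The sequences just before the start of IL11 and of IL6 are shown first, because these ligands had the widest range of levels across the 5 groups, and motifs of AP-1 and NF-κB, the factor families best known at these promoters, can be read in them. Each line gives the 250 bases before the RefSeq start, 5′ to 3′ on the strand of the gene, in build GRCh38.p14. IL11 lies on the minus strand and its window is chr19:55370464-55370713. IL6 lies on the plus strand and its window is chr7:22726950-22727199. Capitals mark an AP-1 motif in IL11 and an NF-κB motif in IL6.
IL11: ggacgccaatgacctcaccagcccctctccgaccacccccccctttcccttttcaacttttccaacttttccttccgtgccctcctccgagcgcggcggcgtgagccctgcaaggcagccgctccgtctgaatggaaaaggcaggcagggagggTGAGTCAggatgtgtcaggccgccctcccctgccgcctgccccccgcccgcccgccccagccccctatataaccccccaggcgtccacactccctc
IL6: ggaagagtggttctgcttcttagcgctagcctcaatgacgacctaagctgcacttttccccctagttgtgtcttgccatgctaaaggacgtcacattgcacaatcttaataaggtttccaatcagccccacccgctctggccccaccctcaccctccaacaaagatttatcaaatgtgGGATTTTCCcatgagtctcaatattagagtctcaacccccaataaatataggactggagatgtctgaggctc
The AP-1 motif TGAGTCA began 96 bases before the start of IL11, and was present in 4.20% of all 35116 RefSeq windows of this length. The NF-κB motif GGANTTTCC began 72 bases before the start of IL6, and was present in 1.45% of windows. RefSeq windows were at hand for 9 of the 10 genes, 13 windows in all, LIF being the gene without an entry. An E2F motif, searched as TTTGGCGC or TTTCCCGC, was in none of the 13 and in 1.93% of all windows, and a STAT motif, searched as TTCCNGGAA, was in none of the 13 and in 0.968% of all windows. Both strands were searched, and the AP-1 and NF-κB matches did not overlap each other in any window of these genes. The RefSeq starts used for SOCS3 were not its GENCODE start at position 78360077 on chromosome 17. Its windows, chr17:78360926-78361175 and chr17:78359668-78359917, leave out the bases just before that start, which were thus not searched. A match is a run of letters and says nothing of binding in these cells.

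IL11 was the ligand with the largest difference in the knockdowns. Its level was 147 and 134 CPM in the control shRNA libraries, 17.5 and 15.8 CPM with shEZH2, and 11 and 10.8 CPM with shE2F1. All 4 knockdown libraries were far below both controls, with no overlap between any of the 3 groups. The log2 change was -3.09 ± 0.11 (SE, n = 2 against 2) for shEZH2 and -3.69 ± 0.11 for shE2F1, which correspond to mean levels 8.42-fold and 12.8-fold below control shRNA. At least 201 counts stood behind the level in each library. In bulk RNA, fewer cells that make a transcript and less transcript per cell cannot be told apart. The gene is at chromosome 19, positions 55364382 to 55370463 on the minus strand in GRCh38, with no annotated gene overlapping it.

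IL6, the founding member of the family and a driver of inflammation, took a different course in each knockdown. It had 3.87 and 3.0 CPM with control shRNA, 2.56 and 2.25 CPM with shEZH2, and 11.3 and 10.7 CPM with shE2F1. The shE2F1 libraries were the highest of the 6 and the shEZH2 libraries the lowest, and no groups overlapped. The log2 change was -0.54 ± 0.25 for shEZH2 and 1.66 ± 0.21 for shE2F1. The level was low in control shRNA and shEZH2, where it rested on 34.0 to 73.0 counts per library.

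LIF, a ligand that maintains stem cells and acts on bone and muscle, moved the opposite way to IL6 in each knockdown. It had 54.0 and 61.4 CPM with control shRNA, 81.8 and 92.3 CPM with shEZH2, and 29.7 and 36.2 CPM with shE2F1. Again the 3 groups did not overlap, with shEZH2 highest and shE2F1 lowest. The change was 0.58 ± 0.12 for shEZH2 and -0.82 ± 0.12 for shE2F1, both under 2-fold.

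**Figure D1:**
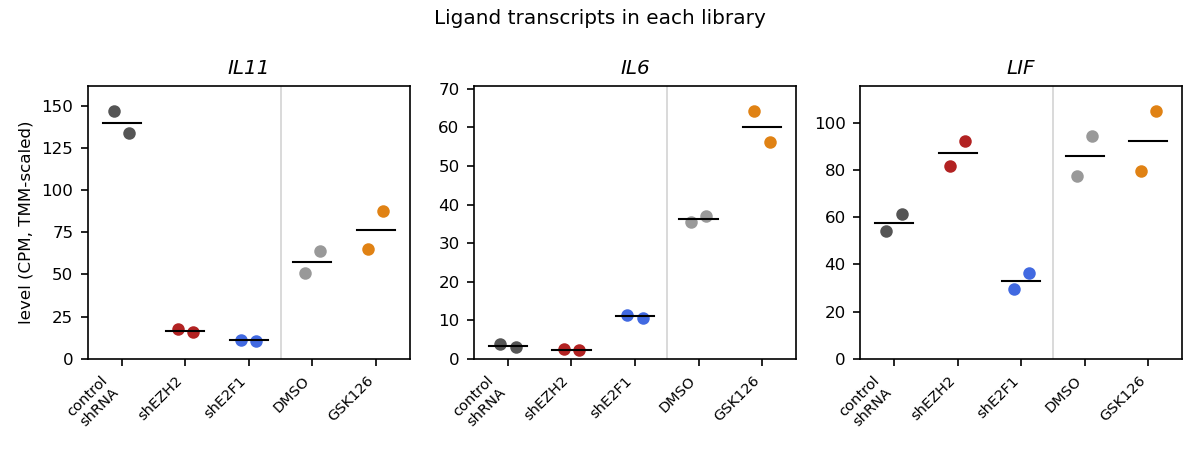
Level of each ligand transcript in every library (y axis, TMM-scaled CPM from 0; each panel has its own scale), for control shRNA, shEZH2, shE2F1, DMSO and GSK126. Points are the 2 libraries of a group, the black line their mean, and the grey line separates the knockdown from the drug experiment. IL11 is near 11 to 18 CPM in both knockdowns, while IL6 is highest in the drug experiment.

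Among the ligand-specific receptor chains, IL6R stood out with shEZH2. It had 2.81 and 4.56 CPM with control shRNA, 17.9 and 24.7 CPM with shEZH2, and 3.93 and 5.61 CPM with shE2F1. The shEZH2 libraries were well above all the others, while shE2F1 overlapped control shRNA. Its log2 change was 2.53 ± 0.26 for shEZH2 and 0.37 ± 0.28 for shE2F1. The average transcript length that RSEM assigned to IL6R ran from 2653 to 5589 bases over the 10 libraries and differed between libraries of a group, with 2653 and 4631 bases in control shRNA, on 24 to 428 counts a library. Whether isoforms changed was not tested, and the change with shEZH2 was 2.15 when this length was taken into account.

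IL11RA, the chain specific to IL-11, was scarce everywhere. It had 3.18 and 1.74 CPM with control shRNA, 2.64 and 6.57 CPM with shEZH2, and 2.64 and 2.16 CPM with shE2F1. A single shEZH2 library was high and the other lay between the controls. The log2 change of 0.90 ± 0.42 for shEZH2 became 0.09 without shEZH2 replicate 2, 1.39 without shEZH2 replicate 1, which passed both thresholds for a call, and 1.41 without control shRNA replicate 1. That for shE2F1 was -0.05 ± 0.44, with a sign that depended on the setting (0.45 without control shRNA replicate 1, 0.08 without shE2F1 replicate 2, 0.01 after correction for GC content). Genes that overlap IL11RA reached 3.32 CPM, similar to IL11RA itself, and reads shared with them could not be separated with certainty.

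OSMR and LIFR, the chains that pair with gp130 for oncostatin M and LIF, moved apart with shE2F1. OSMR had 148 and 118 CPM with control shRNA, 211 and 206 CPM with shEZH2, and 52.8 and 48.3 CPM with shE2F1. Its groups did not overlap, and shE2F1 was lowest. Its change was 0.63 ± 0.11 for shEZH2 and -1.41 ± 0.12 for shE2F1, the second becoming -0.94 with the RSEM length taken into account. OSMR shares its locus with RICTOR on the other strand, at up to 138 CPM, and the strand setting of the counting was not given in the sources used here.

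LIFR had 80.3 and 68.2 CPM with control shRNA, 100 and 91.7 CPM with shEZH2, and 144 and 145 CPM with shE2F1. The shE2F1 libraries were the highest, close to each other and separate from the rest. On the log2 scale LIFR changed by 0.95 ± 0.10 for shE2F1. For shEZH2 it was 0.35 ± 0.10, which turned to -0.14 after correction for GC content and length. LIFR and OSMR lie on chromosome 5 on opposite strands, 238 kb apart with no protein-coding gene between them.

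IL6ST, the chain shared by all these ligands, was the most abundant of the receptor genes and varied least. It had 393 and 392 CPM with control shRNA, 572 and 550 CPM with shEZH2, and 501 and 481 CPM with shE2F1. Both knockdowns were above the controls without overlap, by a log2 change of 0.50 ± 0.08 for shEZH2 and 0.31 ± 0.08 for shE2F1. The first was 0.03 after correction for GC content and length, a property with which the shEZH2 changes of all genes correlated (r = -0.239 across 15366 genes with GC content, against -0.0182 for shE2F1). IL6ST and LIFR are the members poorest in G and C, at 36.5% and 37.1% of the transcript.

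STAT3 was higher and SOCS3 lower in both knockdowns. STAT3 had 160 and 174 CPM with control shRNA, 294 and 319 CPM with shEZH2, and 347 and 360 CPM with shE2F1. SOCS3 had 67.5 and 60.6 CPM with control shRNA, 32.0 and 40.3 CPM with shEZH2, and 28.9 and 26.2 CPM with shE2F1. For both genes the 3 groups were separate, and the inhibitor was lower where the transducer was higher. The log2 change of STAT3 was 0.86 ± 0.09 for shEZH2 and 1.07 ± 0.09 for shE2F1, and that of SOCS3 was -0.84 ± 0.13 and -1.23 ± 0.13. These are transcript levels, and phosphorylation of STAT3 was not measured here.

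**Figure D2:**
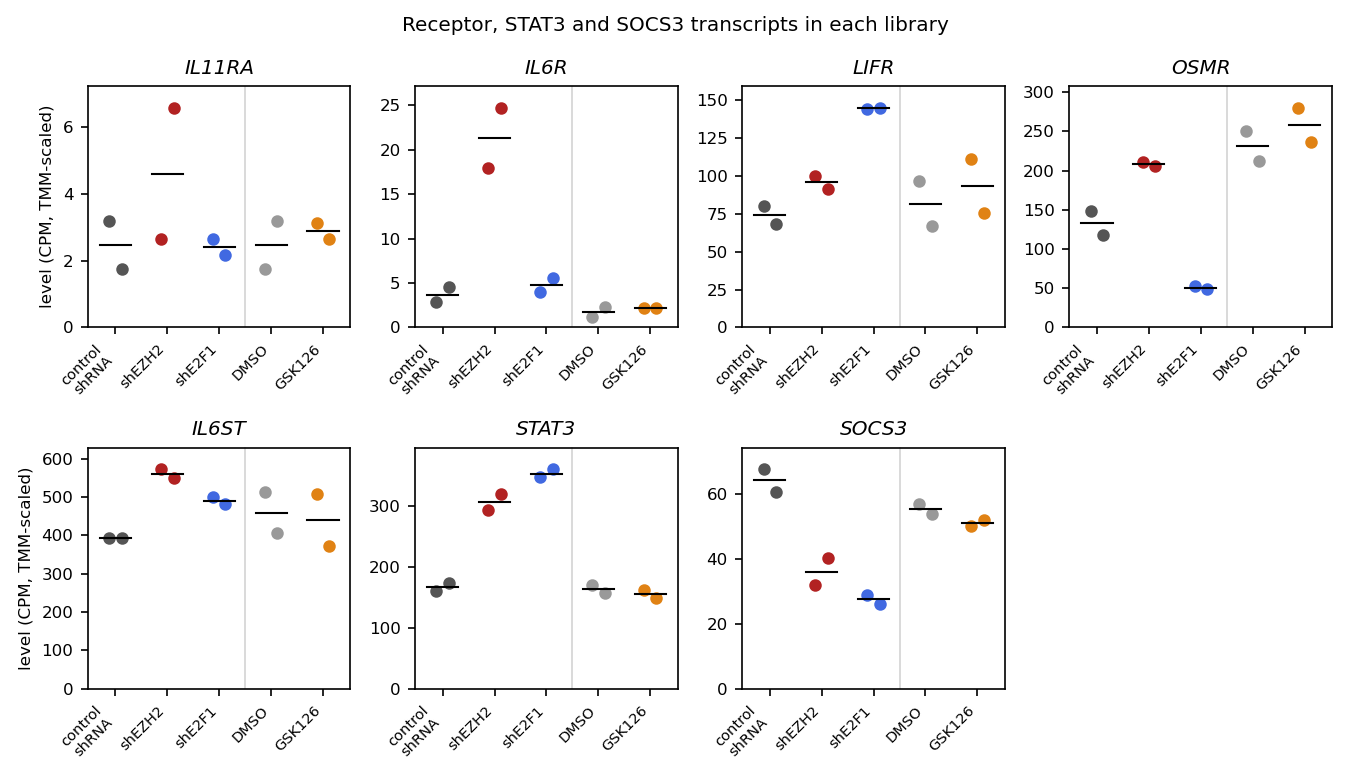
Level of each receptor transcript, STAT3 and SOCS3 in every library (y axis, TMM-scaled CPM from 0; each panel has its own scale), with points for the 2 libraries of a group and a black line for their mean. IL6R is high with shEZH2, OSMR is lowest and LIFR highest with shE2F1, and STAT3 and SOCS3 move in opposite directions in both knockdowns.

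A gene was called when its adjusted p was under 0.01 and its change over 2-fold. By these thresholds IL6R was above and IL11 below control shRNA with shEZH2, 1 of 10 in each direction, where 7.52% of the 15373 genes tested were called higher and 10.7% lower. With shE2F1, IL6 and STAT3 passed as higher and IL11, OSMR and SOCS3 as lower, where 5.60% of genes were called higher and 5.96% lower. These comparisons chose the members, and nothing is read from these counts.

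The direct comparison of the knockdowns was not used to choose the genes, and tests whether they differed between shEZH2 and shE2F1. IL6R, OSMR and LIF were higher with shEZH2 and IL6 was lower. These are 3 of 10 members called higher, where 10.4% of all genes were, and 1 of 10 called lower, where 12.9% were. OSMR was 4.13-fold higher with shEZH2 (log2 difference 2.04 ± 0.12, adjusted p = 4.05e-07), and the difference was 1.56 with the RSEM length taken into account. LIF was 2.64-fold higher (1.40 ± 0.12, adjusted p = 4.65e-06). IL6R was 4.46-fold higher (2.16 ± 0.25, adjusted p = 3.3e-05). IL6 was 4.58-fold higher with shE2F1 (log2 difference of shEZH2 minus shE2F1 -2.20 ± 0.23, adjusted p = 1.33e-05). In each of these 4 genes both libraries of a knockdown lay on the same side of both libraries of the other. That follows largely from their being called and is no further evidence.

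The remaining 6 genes were not called between the knockdowns. IL11 was slightly higher with shEZH2 than with shE2F1, by 0.60 ± 0.12 on the log2 scale (adjusted p = 0.00133), under 2-fold. LIFR was lower with shEZH2, by -0.60 ± 0.10 (adjusted p = 0.000511), and by -1.14 after correction for GC content and length, which is past the fold threshold. For IL6ST the difference was 0.19 ± 0.08 (adjusted p = 0.0727), and -0.34 after that correction. The differences of SOCS3 (0.39 ± 0.13, adjusted p = 0.0230), STAT3 (-0.21 ± 0.09, adjusted p = 0.0591) and IL11RA (0.95 ± 0.42, adjusted p = 0.0708) missed the adjusted p as well. The 95% intervals ran from 0.10 to 0.68 for SOCS3, from -0.41 to -0.02 for STAT3 and from 0.03 to 1.88 for IL11RA. The IL11RA difference was 0.14 without shEZH2 replicate 2, and it was called without shEZH2 replicate 1, at 1.45 (adjusted p = 0.00606).

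**Figure D3:**
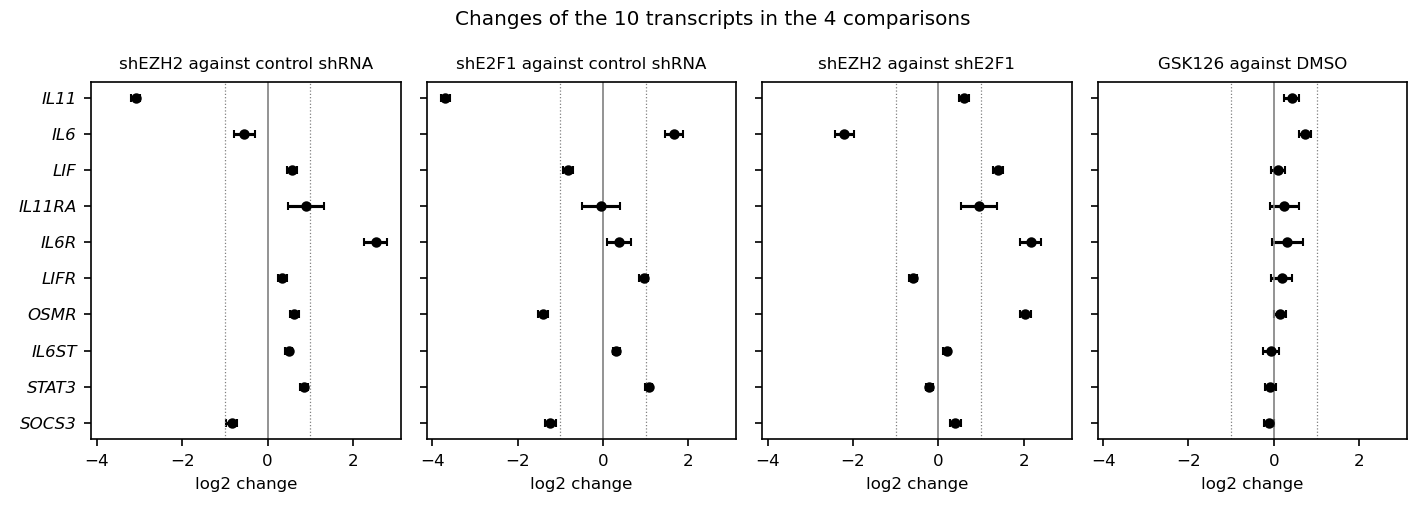
Log2 change of the 10 transcripts (x axis; first-named group minus second) in the 4 comparisons, with bars of 1 SE from the edgeR fit on 2 libraries a group and dotted lines at 2-fold. IL11 is at -3.09 and -3.69 in the first panels and IL6, LIF and OSMR lie on opposite sides of 0 in them, while every value for GSK126 lies inside the 2-fold lines.

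IL11 was not lower when EZH2 activity was inhibited with GSK126. The DMSO libraries had 50.7 and 64.0 CPM of IL11 and the GSK126 libraries 65.1 and 87.7 CPM. The GSK126 libraries were both above the DMSO libraries, by a narrow margin. The log2 change was 0.42 ± 0.18 (adjusted p = 1.00), with a 95% interval from -0.03 to 0.86. IL6 showed the largest change of the 10, from 35.5 and 37.0 CPM without the drug to 64.3 and 56.1 CPM with it. The groups were well separated, at a log2 change of 0.73 ± 0.13 with an unadjusted p of 0.000973, but the adjusted p over all genes was 0.749.

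No member was called with GSK126, and 0% of the 14632 genes tested were, with 10 genes called by DESeq2. By edgeR 577 genes had an unadjusted p under 0.05, a smaller share than the 0.05 that would be there with no true change. The other members changed by between -0.12 (SOCS3) and 0.32 (IL6R) on the log2 scale. The widest of their 95% intervals, for the scarce IL6R, ran from -0.59 to 1.22 and so reached past 2-fold, as did that of IL11RA, from -0.59 to 1.06. The narrowest intervals were those of SOCS3, from -0.40 to 0.16, and STAT3, from -0.36 to 0.20. IL11 and IL6 were the members with both GSK126 libraries above both DMSO libraries, which was the case for 15.2% of all genes tested. SOCS3 was the member with both below, at 50.1 and 52.0 CPM against 57.0 and 53.9 CPM, which was the case for 13.2% of all genes tested. The difference between the changes in the knockdown and drug experiments was not tested.

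The levels also differed between the control groups of the experiments, which differ in virus, selection and culture that cannot be told apart here. IL6 was near 36.3 CPM in DMSO and 3.43 CPM in control shRNA, and the 5 groups ran from GSK126 through DMSO, shE2F1 and control shRNA down to shEZH2 over a 25.0-fold range with no overlap between neighbours. IL11 ran the other way between the controls, with 57.3 ± 9.40 CPM (SD, n = 2) in DMSO and 140 ± 8.80 CPM in control shRNA, and its order was control shRNA, GSK126, DMSO, shEZH2 and shE2F1, again without overlap. SOCS3 was the other gene whose 5 groups were all separate, in the order control shRNA, DMSO, GSK126, shEZH2 and shE2F1, over a 2.33-fold range. The share of all genes with 5 separate groups was not counted, so nothing is read from how many members had them.

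For the remaining genes some neighbours in the order overlapped. OSMR ran over a 5.10-fold range from GSK126 and DMSO, which overlapped, through shEZH2 and control shRNA to shE2F1. IL6R ran over a 12.1-fold range, with shE2F1 and control shRNA not separable below shEZH2, and GSK126 and DMSO not separable at the bottom. In LIF the upper 3 groups, GSK126, shEZH2 and DMSO, overlapped in turn, above control shRNA and shE2F1. In STAT3 both knockdowns were separate at the top and the other 3 groups overlapped in turn. In LIFR, IL6ST and IL11RA the order held 3, 3 and 4 overlapping pairs of neighbours.

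To compare genes with each other, levels per length (transcripts per 1000000, TPM) were used. In control shRNA IL11 was the most abundant of all 10 transcripts, at 123 and 94.7 TPM, ahead of IL6ST, and stood 18.3-fold and 24.2-fold above IL6. With shEZH2 LIF became the leading ligand, at 35.7 and 38.9 TPM against 13.2 and 13.4 TPM for IL11. With shE2F1 IL11 was the lowest of the ligands in both libraries, at 10.1 and 10.3 TPM, while IL6 had 17.1 and 18.0 TPM and LIF 13.4 and 19.9 TPM. In the drug experiment IL11 and IL6 were close, at 46.5 to 78.2 and 46.9 to 103 TPM, and changed places between libraries of both groups.

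The IL6R and IL11RA transcripts were far less abundant than that of IL6ST, which encodes gp130, in TPM. IL6R reached 5.17% and 6.52% of the IL6ST level with shEZH2, and between 0.305% and 1.92% in the other libraries. IL11RA was between 1.94% and 4.92% of IL6ST throughout. The ratio of LIFR to OSMR was 0.284 and 0.276 in control shRNA and 0.249 and 0.238 with shEZH2. With shE2F1 it was 1.06 and 1.16, so these transcripts were about equal there in TPM. That ratio lay between 0.165 and 0.219 in the drug experiment. TPM depends on the RSEM length, which for OSMR was 3599 and 3332 bases with shE2F1 and 4771 and 4794 with control shRNA. The overlap of OSMR with RICTOR bears on the ratio as well.

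**Figure D4:**
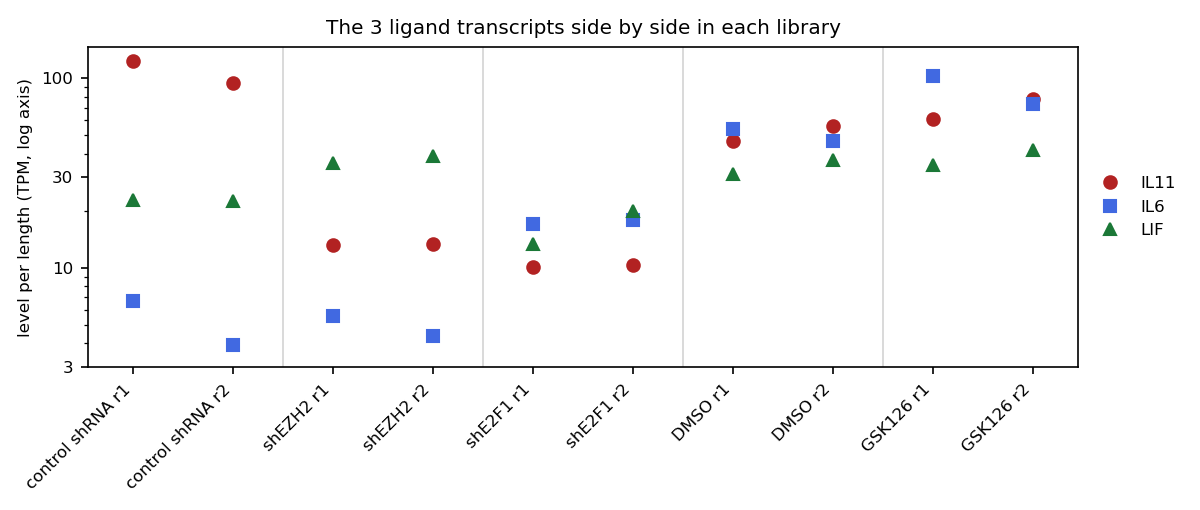
TPM of IL11, IL6 and LIF (y axis, log scale) in each of the 10 libraries (x axis; r1 and r2 are replicates 1 and 2). IL11 leads in control shRNA, LIF leads with shEZH2, IL11 is lowest with shE2F1, and IL11 and IL6 change places in the drug experiment.

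The transcripts whose level over the 10 libraries most resembled that of IL11 were PIGW (Pearson r = 0.988), RAB5C (0.984), CDCA4 (0.983), KIF20A (0.982) and AXL (0.982), among 9377 genes with a mean of at least 200 counts. The points are 10 libraries that share 5 conditions, and the values are a description. AXL, a receptor tyrosine kinase, had 2037 ± 139 CPM (SD, n = 2) in control shRNA, 578 ± 142 with shEZH2, 438 ± 19.7 with shE2F1, 1327 ± 35.4 in DMSO and 1260 ± 53.9 in GSK126. KIF20A, a kinesin of cell division, went from 185 ± 16.1 CPM to 60.1 ± 11.7 with shEZH2 and 54.2 ± 1.52 with shE2F1. Their changes were smaller than that of IL11, at log2 -1.83 and -2.23 for AXL and -1.64 and -1.78 for KIF20A in shEZH2 and shE2F1. Within the set, SOCS3 followed IL11 most closely (r = 0.946) and STAT3 ran against it (r = -0.938), while IL6 and LIF were at 0.228 and 0.422.

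Of 8 tested neighbours within 100 kb of IL11, 7 had a log2 change below 0 with shEZH2 and 7 with shE2F1. The median change over all genes tested was -0.02 and 0.00. These counts include changes near 0, and the neighbours were not tested as a group. TMEM238, which begins 13829 bases from the start of IL11, fell in both knockdowns, with log2 changes of -1.83 ± 0.34 with shEZH2 (adjusted p = 0.000929) and -1.30 ± 0.31 with shE2F1 (adjusted p = 0.00617). The second call was lost without control shRNA replicate 1 (-1.08, adjusted p = 0.0450) and without either shE2F1 library (-1.52, adjusted p = 0.0257, and -1.12, adjusted p = 0.0681), and the first without shEZH2 replicate 2 (-1.52, adjusted p = 0.0110). RPL28, a ribosomal protein gene, fell by 1.81 ± 0.12 with shEZH2 (adjusted p = 2.17e-06). KMT5C, a histone H4 methyltransferase gene, rose by 1.10 ± 0.21 with shEZH2 (adjusted p = 0.00107), a call lost without control shRNA replicate 2 (0.91) or shEZH2 replicate 2 (0.79). With shE2F1 KMT5C was at -0.05 ± 0.21 (adjusted p = 0.870). The other 5 missed 1 of the thresholds or both. UBE2S, a ubiquitin-conjugating enzyme gene, was at -0.84 ± 0.09 with shEZH2 (adjusted p = 2.98e-05) and -0.94 ± 0.09 with shE2F1 (adjusted p = 2.05e-05), under 2-fold. COX6B2 had the estimate nearest that of IL11, with a wide error, at -2.87 ± 0.91 (adjusted p = 0.0204) and -2.54 ± 0.81 (adjusted p = 0.0266). BRSK1 was at -0.97 ± 0.27 (adjusted p = 0.0113) and -0.32 ± 0.26 (adjusted p = 0.338), ISOC2 at -0.82 ± 0.10 (adjusted p = 7.43e-05) and 0.25 ± 0.10 (adjusted p = 0.0618), and HSPBP1 at -0.42 ± 0.10 (adjusted p = 0.00380) and -0.26 ± 0.10 (adjusted p = 0.0480). RPL28 and UBE2S overlap on opposite strands, and RPL28 has many near-identical copies in the genome, so reads for them are less certain.

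Around the 10 genes, 59 others of the pathway were followed in 7 lists that were drawn up with results of these data already known. The genes named from them were those with the largest called changes. Their adjusted p-values against control shRNA are thus a description and not independent tests of the pathway. Of the other ligands 5 of 9, and of the other receptor and shedding genes 4 of 6, passed the filter on low counts. IL31RA, which pairs with OSMR for interleukin-31 and lies 12.2 kb from IL6ST, rose with shEZH2 and fell with shE2F1. It had 20.3 ± 0.387 CPM (SD, n = 2) with control shRNA, 76.1 and 83.4 CPM with shEZH2, and 4.94 and 5.07 CPM with shE2F1. The log2 change was 1.97 ± 0.11 (adjusted p = 8.16e-07) and -2.02 ± 0.13 (adjusted p = 1.56e-06). The direct difference was 3.99 ± 0.12, in the same direction as for OSMR. That difference follows from the changes by which IL31RA was chosen and is no further evidence. IL27RA, the receptor of interleukin-27, fell with shE2F1 by 1.63 ± 0.19 (adjusted p = 7.61e-05). ADAM17, a protease that sheds the IL-6 receptor, rose with shEZH2 by 1.26 ± 0.11 (adjusted p = 9.03e-06), and by 0.90 after correction for GC content and length. The ligand CNTF fell with shE2F1 by 1.51 ± 0.32 (adjusted p = 0.00321), from 3.44 and 3.30 CPM to 1.39 and 0.971 CPM, a call lost whichever of the 4 libraries was left out (-1.28 to -1.80).

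Kinases and adaptors of the pathway changed little. Of 8 genes, GAB1, an adaptor that carries gp130 signals to MAP kinases, was the gene called in either knockdown, rising with shEZH2 by 1.88 ± 0.17 (adjusted p = 8.77e-06). The median log2 change of the list was 0.49 with shEZH2 and 0.06 with shE2F1, beside -0.02 and 0.00 over all genes tested. Among 7 further inhibitors, SOCS2 fell with shEZH2 by 1.49 ± 0.20 (adjusted p = 0.00013), and PTPN1, a phosphatase that acts on Janus kinases, and PIAS3, which binds STAT3, fell with shE2F1 by 1.26 ± 0.13 (adjusted p = 2.89e-05) and 1.23 ± 0.13 (adjusted p = 3.84e-05). No gene of that list was called higher with shEZH2 or shE2F1, where 7.52% and 5.60% of all genes tested were. Called lower were 10.7% and 5.96% of all genes tested. The median of the list was -0.34 in each knockdown.

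Of 15 tested genes known as STAT3 targets, 1 rose and 3 fell with shEZH2, where 7.52% and 10.7% of all genes tested did. With shE2F1, 1 rose and 1 fell, where 5.60% and 5.96% did. The gene that rose was JUNB in both, by 1.26 ± 0.16 (adjusted p = 9.52e-05) and 1.25 ± 0.16 (adjusted p = 0.00014). With shEZH2 the oncoprotein gene BCL3 fell by 2.10 ± 0.29 (adjusted p = 0.000132), the survival gene BCL2L1 by 1.58 ± 0.09 (adjusted p = 1.18e-06) and the cyclin gene CCND1 by 1.25 ± 0.10 (adjusted p = 6.65e-06). With shE2F1 VEGFA, the main angiogenic factor, fell by 1.28 ± 0.10 (adjusted p = 6.47e-06). The median of the list was 0.04 with shEZH2 and -0.54 with shE2F1, while STAT3 itself was higher in both. BCL3 differed between the control shRNA libraries, at 34.2 and 17.3 CPM.

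AP-1, whose motif stands in the IL11 window above, is a dimer of Fos, Jun and ATF subunits, and all 8 subunit genes followed were tested. In shEZH2, 3 rose and 1 fell, where 7.52% and 10.7% of all genes tested did. In shE2F1, 3 rose and 2 fell, where 5.60% and 5.96% did. The medians of the list were 0.22 and -0.23. JUNB, also among the STAT3 targets, is counted in both lists. ATF3, a stress-induced subunit, had 4.77 and 6.24 CPM with control shRNA, 41.5 and 50.6 CPM with shEZH2, and 21.7 and 22.9 CPM with shE2F1, a rise of 3.06 ± 0.16 (adjusted p = 7.95e-07) and 2.01 ± 0.16 (adjusted p = 7e-06). FOSL2 fell in both, by 1.03 ± 0.11 in each (adjusted p = 3.3e-05 and 4.51e-05), just past 2-fold, and was under it without control shRNA replicate 1 (-0.89 in each), without shEZH2 replicate 2 (-0.93) and without shE2F1 replicate 2 (-0.96). FOSL1, at a mean of 649 CPM in control shRNA, fell with shE2F1 by 1.20 ± 0.13 (adjusted p = 3.84e-05), and by 0.97 without control shRNA replicate 2. JUND rose with shEZH2 by 1.16 ± 0.21 (adjusted p = 0.000927), and by 0.78 without control shRNA replicate 2. FOSB rose with shE2F1 by 1.72 ± 0.33 (adjusted p = 0.00167) from 17.0 counts in each control library, but by 0.64 with the RSEM length taken into account, and the call was lost without either shE2F1 library (1.66, adjusted p = 0.0206, and 1.77, adjusted p = 0.0147) or without control shRNA replicate 1 (1.63, adjusted p = 0.0115).

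IL11 belongs to a group of genes known for bone metastasis of MDA-MB-231 cells. With shEZH2, 4 of the 6 others tested rose and none fell, where 7.52% and 10.7% of all genes tested did. With shE2F1, 1 of 6 fell and none rose, where 5.96% and 5.60% did. The medians of the list were 2.12 and 0.38. PTHLH, the parathyroid hormone-like factor that drives bone resorption, went from 0.901 and 1.20 CPM to 11.6 and 15.3 CPM with shEZH2, a rise of 3.67 ± 0.29 (adjusted p = 4.6e-06). CCN2, a matricellular growth factor, went from 246 and 302 CPM to 1019 and 1454 CPM with shEZH2 and to 110 and 119 CPM with shE2F1. Its log2 change was 2.16 ± 0.16 (adjusted p = 3.42e-06) and -1.26 ± 0.16 (adjusted p = 0.0001). The collagenase gene MMP1 and the protease gene ADAMTS1 rose with shEZH2 by 2.33 ± 0.48 (adjusted p = 0.00180) and 2.08 ± 0.47 (adjusted p = 0.00318), from at most 34 and 8 counts in a control library. The MMP1 change ranged from 1.67 to 3.47 without either control library and was no longer called without shEZH2 replicate 2 (2.03, adjusted p = 0.0138), and ADAMTS1 was not called when any of the 4 libraries was left out (1.87 to 2.35).

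**Figure D5:**
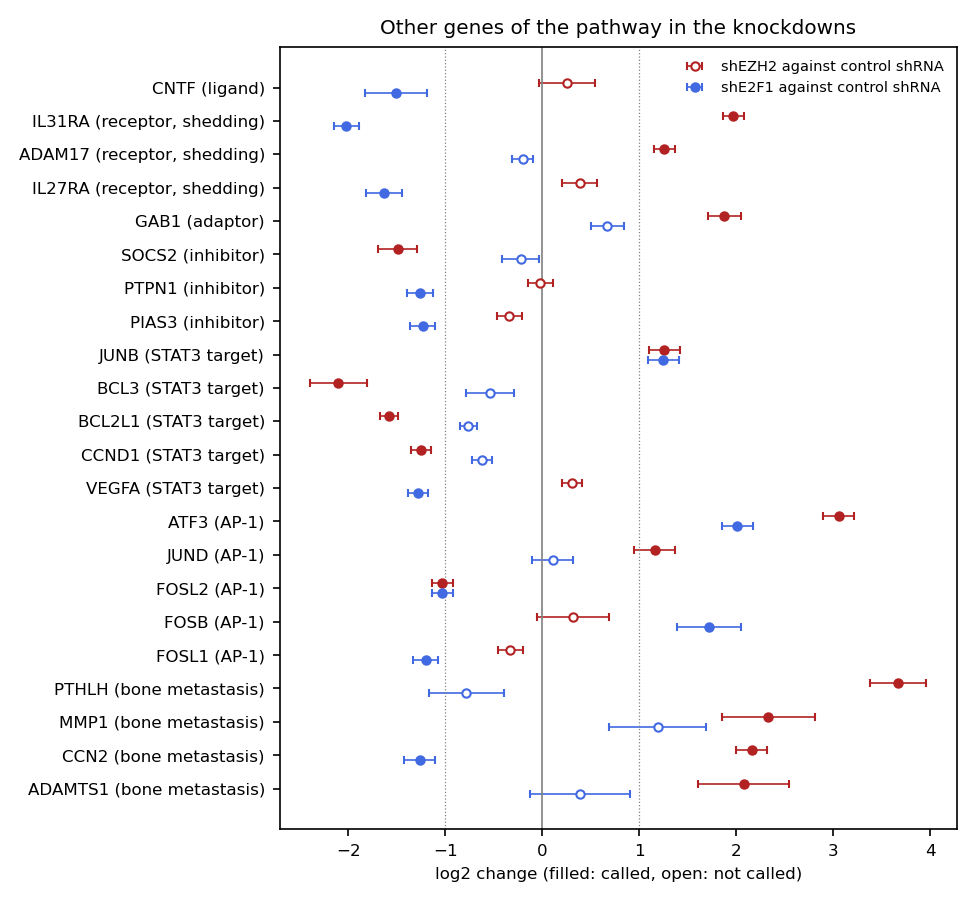
Log2 change with 1 SE (x axis) of the pathway genes chosen by the rule for named genes, in shEZH2 (red) and shE2F1 (blue) against control shRNA, with the list of each gene in brackets and dotted lines at 2-fold. Filled points passed both thresholds and open points did not. Both comparisons share the control libraries. IL31RA and CCN2 lie on opposite sides of 0, and ATF3 and JUNB are filled on the right in both.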

How the data were processed

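Sequencing was of poly(A) RNA made into directional libraries. The authors mapped reads to hg38 with Ensembl release 108 by STAR and estimated abundance by RSEM with read start positions modelled; the submitters' processing notes give STAR 2.7.2b and RSEM 1.3.1, the study's methods another STAR version. The deposited files hold, per gene and library, expected counts (estimated counts), TPM, the effective length and the posterior SD of the count, given by the authors as a score of uncertainty about multi-mapped reads. Of 18 sample records, 8 repeated another value for value and were used once.

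Expected counts were rounded and tested with the quasi-likelihood F-test of edgeR 4.0.16 (R 4.3.3) after filterByExpr and TMM scaling, with Benjamini-Hochberg adjustment over all genes. The 6 knockdown libraries shared a fit and the 4 drug libraries another, with no covariate. Standard errors are the log2 change divided by the square root of F, and 95% intervals use the t quantile at the degrees of freedom of the fit. Levels between libraries are CPM from 1 TMM scaling of all 10 libraries, and levels between genes are the deposited TPM. With 3 counts as the floor, a gene at 0 may still have 0.15 to 0.227 CPM, counting error alone considered. Symbols and coordinates came from GENCODE release 44, which held 99.9% of the gene identifiers, and promoter windows from RefSeq. Named genes were the members, EZH2 and E2F1, up to 4 called genes per list, direction and knockdown with libraries apart from both controls, the 5 genes most like IL11 (log2 of CPM + 0.5) and tested genes within 100 kb of it. The members and lists were chosen with earlier results of these data known. Alternatives comprised DESeq2 1.42.0, its size factors, other count filters, all 10 libraries or 4 libraries in a fit, the replicate block, a correction for GC content and length by splines with 5 degrees of freedom, the effective length as an offset, and leaving out each library. Scripts were tested on simulated data.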

Additional observations from a re-analysis of the deposited data

Results flagged for a closer look

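In 4 genes the change with shEZH2 differed from the change with shE2F1 by the direct test of the difference, at an adjusted p under 0.01 and over 2-fold by edgeR. IL6 was at -0.54 with shEZH2 and 1.66 with shE2F1, a difference of -2.20 ± 0.23 (adjusted p = 1.33e-05). LIF was at 0.58 and -0.82, a difference of 1.40 ± 0.12 (adjusted p = 4.65e-06). OSMR was at 0.63 and -1.41, a difference of 2.04 ± 0.12 (adjusted p = 4.05e-07). IL6R was at 2.53 and 0.37, a difference of 2.16 ± 0.25 (adjusted p = 3.3e-05). In IL6, LIF and OSMR the changes against control shRNA had opposite signs. With 2 libraries a group, no library could be examined as standing apart from the others of its group.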

How the results depend on the processing

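Leaving out libraries in turn, IL11 ranged from -3.16 to -3.00 with shEZH2 and from -3.75 to -3.63 with shE2F1. An adjusted p under 0.05 with no fold requirement called 8550 genes for shEZH2, 6879 for shE2F1 and 9267 between the knockdowns. For GSK126, where no gene was called, DESeq2 called 10 and leaving out a library called 37 to 43, the lone sample then being assumed to vary like the other group. The direction of a member reversed with the GC and length correction for LIFR with shEZH2 (-0.14), IL11RA with shE2F1 (0.01) and IL6ST between knockdowns (-0.34). With that correction and the replicate block, LIFR was at -0.13 and IL6ST at -0.33. IL11RA with shE2F1 also reversed when a library was left out (0.08 and 0.45, range -0.41 to 0.45). For GSK126, the sign changed when a library was left out: LIF ran from -0.11 (also -0.02) to 0.29, IL11RA from -0.12 to 0.70, IL6R from -0.08 to 0.84, IL6ST from -0.31 to 0.15 (also 0.13) and LIFR from -0.12 (also -0.06) to 0.49. LIFR with shE2F1 passed 2-fold in 4 settings (1.00 to 1.07) and OSMR fell under it with the effective length (-0.94). Also called were IL11RA without shEZH2 replicate 1 (1.39 with shEZH2, 1.45 between the knockdowns), SOCS3 with shEZH2 without shEZH2 replicate 2 (just past 2-fold), and LIFR between the knockdowns with the GC and length correction, with and without the block (-1.14). The causes were not tested. For genes outside the set the same alternatives were chosen after seeing the data, and the report gives beside a gene the library without which its change against control shRNA was no longer called. Beyond leaving out libraries, calls against control shRNA were lost for TMEM238 with shE2F1 and ADAMTS1 with shEZH2 by DESeq2 (-1.30, adjusted p = 0.0223, and 2.13, adjusted p = 0.0338), with all 10 libraries in 1 fit and with the effective length, for FOSB with shE2F1 in the latter 2 settings (1.73 and 0.64), and for FOSL2 with shE2F1 with the GC correction (-0.90), a mean of at least 50 counts (-0.99) and, just under 2-fold, the effective length. PIGW with the effective length (-0.90) and ADAM17 with the GC correction (0.90) fell under 2-fold with shEZH2. In all, the direction and the side of the threshold of the members were as reported in most cases. These were 156 of 160 for shEZH2, 152 of 160 for shE2F1, 155 of 160 between the knockdowns and 120 of 128 for GSK126. Many cases refit the same libraries. For the knockdowns, some left out a library of the group not compared, so agreement was partly built in.

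Replicate numbers are shared by the groups, but the labels do not say that they mark a batch. Deviations of same-numbered libraries correlated at r = 0.0200 to 0.0972 between the knockdown groups and 0.335 between DMSO and GSK126, across 15773 genes. With the replicate block 68 genes were called for GSK126, or 63 with the GC and length correction added. No member was among them, and the change of IL6 was 0.73 ± 0.06 (adjusted p = 4.63e-11) and that of IL11 0.41 ± 0.05 (adjusted p = 3.95e-07), both under 2-fold, with 1 residual degree of freedom. The block changed the call of no member in any comparison. Expression below about 0.2 CPM cannot be seen at this depth, and the 2 libraries a group leave small changes unresolved.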
